A study of Mus musculus with 6 samples.

Results

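Immediate early genes are genes that cells switch on within minutes of a stimulus, without first making new protein. Here 10 of them, chosen by name (Fos, Fosb, Jun, Junb, Egr1, Atf3, Ier2, Dusp1, Zfp36 and Nr4a1), were read from the gene tables of a mouse duodenum study. All 10 were found among the 23026 gene symbols used. The tissue was the 2 cm of duodenum nearest the stomach, from 6-week-old mice of mixed background, in 3 control and 3 mutant libraries. Control 1 was Nkx2.2flox/+; Rosa26Tomato/+, control 2 was Rosa26Tomato/+ and control 3 was wild type (WT), so no control carried Cre. Mutants 1 and 3 were Nkx2.2flox/SD; Villin-Cre/+; Rosa26Tomato/+, and mutant 2 was Nkx2.2flox/SD; Villin-Cre/+ without the reporter. Nkx2.2 is a transcription factor of endocrine cells, and SD is an allele altered in the NK2-specific domain of the protein. Villin-Cre acts in the intestinal epithelium, where the floxed copy is lost and the SD copy is left, while cells outside the epithelium keep the floxed copy beside the SD copy. The loss of the floxed copy, Cre and the SD allele differ together between the groups and cannot be told apart. The comparison asks how duodenal RNA differs in these mutants.

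Stimuli such as growth factors, stretch and injury reach immediate early genes through MAP kinases and calcium. These signals act on factors already bound at the promoters, among them SRF with its Elk partners at CArG boxes and CREB at cyclic AMP response elements (CRE). The transcripts are short-lived, and they are also known to rise while tissue is handled. Of the proteins, those of Fos, Fosb, Jun, Junb and Atf3 are bZIP transcription factors that bind DNA as pairs, Egr1 and Nr4a1 encode a zinc finger factor and a nuclear receptor, and Dusp1 and Zfp36 encode inhibitors of the response.

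The libraries held 19.1 M to 22.9 M reads, as read from the deposited coverage. Enterocyte markers were abundant in every library, with summed levels from 22834 to 37612 FPKM (fragments per kilobase of transcript, scaled to the mapped fragments of the library). Control 1 and mutant 1 stood apart from the other 4 libraries in 3 ways. Their sex was male by Xist and the Y-linked genes, and that of the other 4 was female. Their circadian clock genes were in another state: Arntl was at 21.6 and 16.5 FPKM in them and at 2.14 to 3.03 FPKM in the others, and Per2 at 1.20 and 1.88 FPKM against 11.9 to 12.9 FPKM. Of 12 clock genes, a list chosen after their values were seen, 10 separated these 2 libraries from the other 4. Over all genes tested, 6.41% were lower and 20.9% higher in both than in all the others. Their summed stomach and Brunner gland markers were at 4556 and 4609 FPKM, against 122 to 1338 FPKM in the others, nearly all of it Tff2; in this list Muc5ac, Gkn1, Gkn2 and Atp4a, markers of the stomach lining, were at or below 0.308 FPKM in every library. Since each group held 1 such library, these differences do not coincide with the groups, but sex, clock state and gland content coincide with one another and cannot be told apart. Any 2 libraries differed in genotype or in sex, so no 2 came from the same mouse. The labels do not say whether a library held 1 mouse or several, so p-values measure only the spread between these libraries.

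None of the immediate early genes passed the test for a difference between mutants and controls. In limma on log2(FPKM + 0.1), 0 of 10 passed at an adjusted p under 0.05, where 0 of 14642 genes tested passed (0%). At an unadjusted p under 0.05 there was 1 of the 10, Egr1, higher in mutants, where 2.84% of all genes were below that value and 1.98% were below it and higher in mutants. Run on reads recovered from the coverage, limma-voom called 0 of the 10, with 0 at an unadjusted p under 0.05, and in the authors' deposited table none of the 10 had a DESeq p under 0.05. Of the 10, 9 had a higher mean log2 level in the mutants, where 51.2% of all genes did. In the authors' deposited table, made from the same libraries, all 10 had a higher mean normalized count in the mutants. The fold changes ran from 1.01 for Dusp1 to 1.76 for Nr4a1. The share over all genes of that table was not computed, so this count has no background beside it. In limma the median log2 change of the 10 was 0.12, beside 0.0042 over all genes tested. Single libraries moved this median: it was 0.04 without control 1, where the median of all genes was 0.04 too, 0.04 without mutant 2 and 0.03 without mutant 3. It was 0.19 without control 2 and 0.24 without mutant 1. In bulk tissue, fewer cells of a type and less RNA per cell cannot be told apart.

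**Figure D1:**
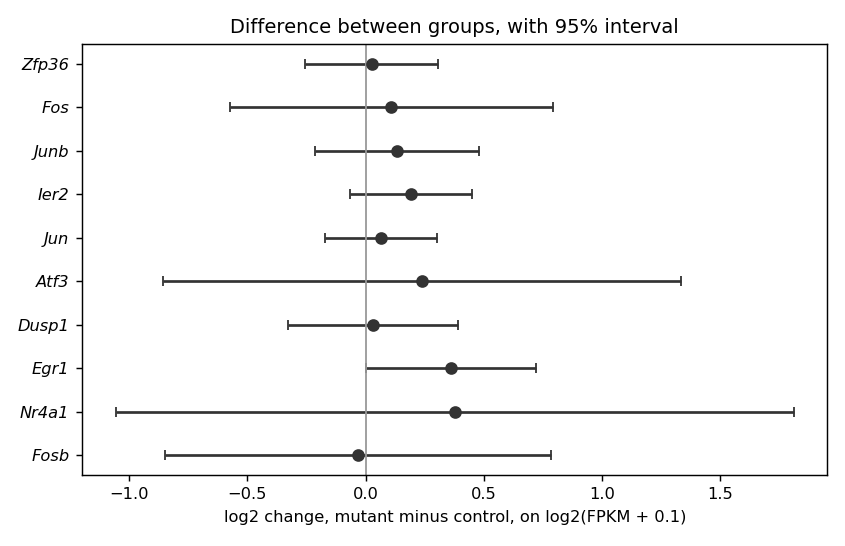
Log2 change of each immediate early gene (horizontal axis, mutant minus control on log2(FPKM + 0.1)) with its 95% limma interval, in order of mean level. Every interval but that of Egr1 spans 0, and the intervals of Nr4a1, Atf3, Fosb and Fos are the widest of the 10.

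The width of these intervals sets what could be seen. For Jun the 95% interval of the log2 change ran from -0.17 to 0.30, for Zfp36 from -0.25 to 0.31 and for Ier2 from -0.07 to 0.45. These intervals hold no difference as large as 1.5-fold. For Fos it ran from -0.57 to 0.79, for Atf3 from -0.86 to 1.33 and for Nr4a1 from -1.06 to 1.81, so the intervals of Atf3 and Nr4a1 include a 2-fold difference.

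FPKM is scaled per length, so the levels of the genes can be set side by side. Zfp36 had the highest mean over the 6 libraries, at 87.5 FPKM, followed by Fos at 73.8, Junb at 49.98, Ier2 at 37.2 and Jun at 30.5 FPKM. Atf3 at 10.2, Dusp1 at 9.04, Egr1 at 3.06 and Nr4a1 at 1.77 FPKM followed, and Fosb was lowest at 0.321 FPKM. The ranges of Zfp36 and Fos, Fos and Junb, Junb and Ier2, Atf3 and Dusp1, and Egr1 and Nr4a1 overlapped, and the other neighbours did not. Fos exceeded Junb, and Junb exceeded Ier2, in all 6 libraries in spite of the overlap. Atf3 exceeded Dusp1 in 3 of 6 libraries.

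**Figure D2:**
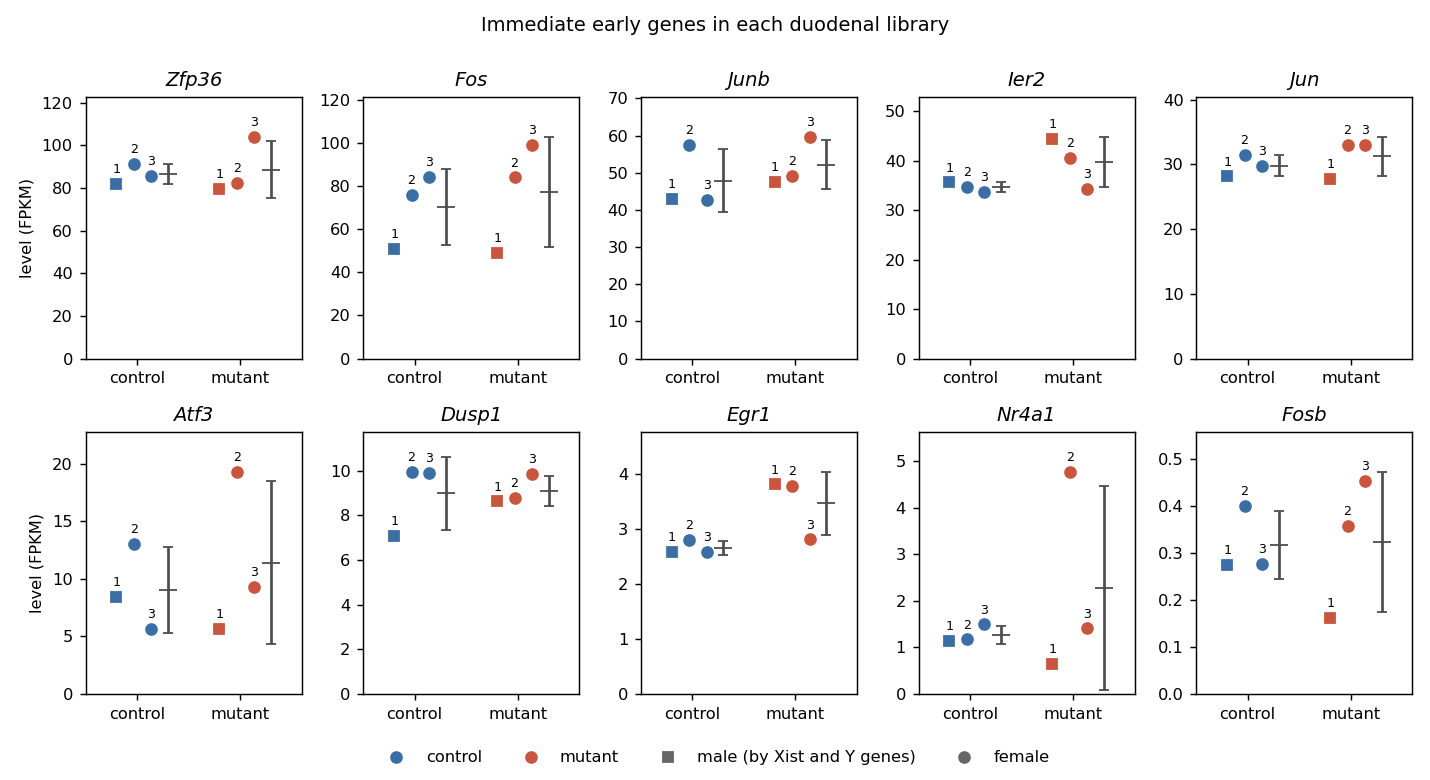
Level in FPKM (vertical axes, each from 0) of the 10 genes in each control (blue) and mutant (red) library, numbered by replicate, with the group mean and SD (n = 3) in grey; squares are the libraries of male sex. Fos was at 50.7 and 49.0 FPKM in the male libraries and at 76.0 to 98.9 FPKM in the other 4, while Nr4a1 reached 4.77 FPKM in mutant 2.

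Among the Fos family, Fos encodes the AP-1 subunit that pairs with Jun proteins. It lies on chr12:86814851-86818219 (mm9, as for each gene position that follows) and has 1 transcript in the tables, NM_010234. Its level was 50.7, 76.0 and 84.4 FPKM across controls 1 to 3 and 49.0, 84.0 and 98.9 FPKM across mutants 1 to 3. The lowest value of each group was its library 1, and the other 4 lay well above both. The means were 70.4 ± 17.5 FPKM across controls and 77.3 ± 25.6 FPKM across mutants (SD, n = 3), with a log2 change of 0.11 (SE 0.29). The sign turned without control 1 (-0.11) or mutant 3 (-0.10). These values rest on 1764 to 4269 reads per library.

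Fosb (chr7:19888045-19895394) encodes a relative of Fos and was the least abundant of the 10. Its level was 0.275, 0.4004 and 0.277 FPKM across controls and 0.161, 0.358 and 0.453 FPKM across mutants, and the groups overlapped. Mutant 1 had 11 reads, with an exact 95% Poisson interval of 5.49 to 19.7, and mutant 3 had 37 reads, with one of 26.1 to 51.0. These intervals cover counting error only. The log2 change was -0.03 (SE 0.35), and it was the only one of the 10 below 0. Its sign depends on the scale: mean FPKM was 0.317 across controls and 0.324 across mutants. In the authors' deposited table its fold change was 1.06.

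The Jun family was steadier. Jun (chr4:94715727-94718913) encodes the main partner of Fos in AP-1. It was at 28.1, 31.5 and 29.8 FPKM across controls and 27.8, 33.0 and 33.0 FPKM across mutants, a 1.19-fold range over all 6 libraries and the narrowest of the 10. Library 1 was again lowest in each group. The log2 change was 0.07 (SE 0.10). Its span shares 689 bases with BC042782, annotated on the opposite strand, and whether strand was used in counting is not given in the sources used here, so reads there cannot be told apart. Junb (chr8:87500808-87502647), which encodes a weaker activator than Jun, was at 43.1, 57.6 and 42.8 FPKM across controls and 47.6, 49.2 and 59.7 FPKM across mutants. Its highest values were in control 2 and mutant 3, 1 in each group, and the log2 change was 0.13 (SE 0.15).

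Atf3 (chr1:192994176-193007212), a stress-induced bZIP gene, was among the most variable. It was at 8.41, 12.99 and 5.62 FPKM across controls and 5.66, 19.3 and 9.27 FPKM across mutants. The highest library, mutant 2, was 3.43 times the lowest, control 3. The log2 change of 0.24 (SE 0.47) turned to -0.23 without mutant 2, to -0.06 without control 3 and to -0.52 among the 4 reporter carriers.

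Nr4a1 (chr15:101097277-101105225) encodes an orphan nuclear receptor that is induced in many cell types and in activated lymphocytes. It was at 1.13, 1.17 and 1.49 FPKM across controls and 0.647, 4.77 and 1.41 FPKM across mutants. Mutant 2, with 237 reads, thus lay far above the next library, and mutant 1, with 28 reads, was the lowest of the 6. Without mutant 2 the 5 remaining libraries spanned a 2.31-fold range, in place of 7.37-fold. The log2 change of 0.38 (SE 0.61) turned to -0.36 without mutant 2 and to -0.24 among the reporter carriers, which mutant 2 is not. T cell markers of mutant 2 summed to 58.5 FPKM, inside the 46.4 to 62.6 FPKM of the controls, and those of B and plasma cells to 1488 FPKM, inside 1455 to 1649 FPKM. Summed mast cell markers were at 38.9 FPKM in mutant 2 and 42.7 FPKM in mutant 3, against 14.1 to 20.1 FPKM in the other libraries. Most of this sum came from Mcpt1 and Mcpt2. Of 6 mast cell markers tested, Mcpt4 and Fcer1a were higher in every mutant than in every control, where 4.14% of all genes were. Both were low, at most 0.994 FPKM for Mcpt4 and 0.578 FPKM for Fcer1a in any library. Mcpt1 and Mcpt2 overlapped: mutant 1, at 8.45 and 3.78 FPKM, lay inside the control ranges of 8.17 to 10.7 and 2.88 to 4.76 FPKM. The part of any of these cells in the level of Nr4a1 was not tested.

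Egr1 (chr18:35020861-35024610), which encodes a zinc finger activator, was the only one of the 10 whose groups did not overlap. Over all genes the groups did not overlap for 7.57%, and for 4.14% with the mutants higher, so 1 of 10 is near the background. It was at 2.58, 2.80 and 2.58 FPKM across controls and 3.805, 3.77 and 2.81 FPKM across mutants. Mutants 1 and 2 lay above all controls, while mutant 3 lay beside control 2. The means were 2.65 ± 0.126 FPKM across controls and 3.46 ± 0.568 FPKM across mutants (SD, n = 3). The log2 difference was 0.36 (SE 0.15), with a limma adjusted p of 1.0. The exact permutation test, two-sided, had p = 0.1 (n = 3 per group), the smallest value that 3 against 3 allows. In the authors' deposited table the normalized means were 161 and 208, a fold change of 1.29 with a DESeq p of 0.078 and an adjusted p of 1. The log2 change stayed above 0 in all the alternatives run, between 0.27 and 0.50, though some of these cannot move it. A span of 172 bases of Egr1 is shared with Gm17507, annotated on the opposite strand.

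Ier2 (chr8:87185230-87186751) encodes a small nuclear protein whose function is less well known. It was at 35.6, 34.6 and 33.6 FPKM across controls, which lay close together, and 44.4, 40.5 and 34.3 FPKM across mutants. Mutants 1 and 2 exceeded all controls and mutant 3 did not. The log2 change was 0.19 (SE 0.11). It was above 0 in all the alternatives run (0.11 to 0.29), though some of these cannot move it. Egr1 and Ier2 thus had the same 2 mutants on top, and both were highest in mutant 1, the library in which 5 of the other 8 genes were lowest.

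For the inhibitors of the response the groups overlapped. Dusp1 (chr17:26642536-26645417) encodes a phosphatase that inactivates MAP kinases. It was at 7.10, 9.95 and 9.92 FPKM across controls and 8.63, 8.78 and 9.88 FPKM across mutants, and control 1 was the lowest. The log2 change was 0.03 (SE 0.15), and it turned to -0.13 without control 1 and -0.03 without mutant 3. Zfp36 (chr7:29161803-29164247) encodes tristetraprolin, which binds AU-rich elements and speeds the decay of immediate early and cytokine transcripts. It was at 82.1, 91.5 and 85.8 FPKM across controls and 79.4, 82.3 and 104 FPKM across mutants, with mutant 3 above all others. Its log2 change was 0.03 (SE 0.12), with -0.01 without control 1 and -0.10 without mutant 3.

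**Figure D3:**
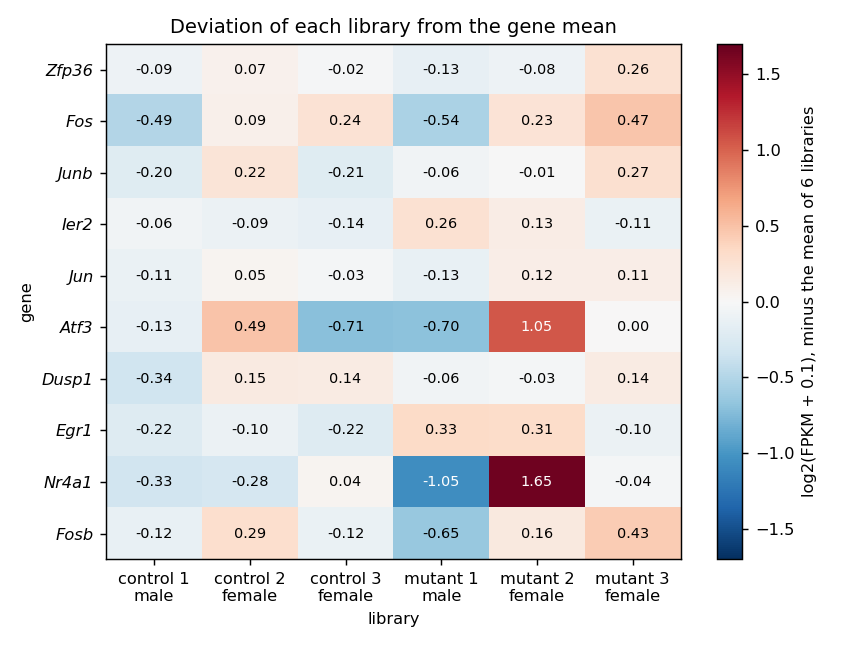
Deviation of each library (columns) from the gene's mean over 6 libraries on log2(FPKM + 0.1), for each of the 10 genes (rows, in order of mean level), blue below and red above the mean. Fos stood at -0.49 in control 1 and -0.54 in mutant 1 and above 0 in the other 4, while Egr1 and Ier2 stood at 0.33 and 0.26 in mutant 1.

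Across libraries the genes did not share a single order. The highest library was a mutant one for every gene but Dusp1, and shares over all genes are given by library. Mutant 1 was the lowest library for 5 of the 10 (Fos, Fosb, Jun, Zfp36 and Nr4a1), where it was lowest for 11.9% of all genes tested. Control 3 was the lowest for 4 (Junb, Egr1, Atf3 and Ier2, against 18.4% of all genes) and control 1 for Dusp1 (10.5%). Some of these minima were near ties. Egr1 was at 2.578 FPKM in control 3 and 2.579 FPKM in control 1, and Junb at 42.8 and 43.1 FPKM. Atf3 was at 5.62 FPKM in control 3 and 5.66 FPKM in mutant 1. Control 2, mutant 2 and mutant 3 were lowest for none of the 10, and for 27.7%, 15% and 16.5% of all genes. Mutant 3 was the highest for 4 (Zfp36, Fos, Junb and Fosb), where it was highest for 11% of all genes, and mutant 2 for 3 (Jun, Atf3 and Nr4a1; 12.9%). Mutant 1 was highest for Egr1 and Ier2 (22.5% of all genes) and control 2 for Dusp1 (11.3%). Controls 1 and 3 were highest for none of the 10, and for 29% and 13.3% of all genes.

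Both control 1 and mutant 1 lay below all 4 other libraries for 6 of the 10: Fos, Fosb, Jun, Dusp1, Zfp36 and Nr4a1. Over all genes tested this held for 6.41%, while 20.9% of genes were higher in both than in all the others. This split was noticed in the values, so the counts are a description. For Fos the highest of the pair was 50.7 FPKM and the lowest of the 4 was 76.0 FPKM, with a mean of 85.8 FPKM in the 4 libraries and 49.9 FPKM in the pair, a ratio of 1.72. For Fosb, Zfp36, Nr4a1 and Dusp1 the gap was narrow: the nearest values were 0.275 and 0.277 FPKM for Fosb, 82.1 and 82.3 FPKM for Zfp36, 1.13 and 1.17 FPKM for Nr4a1, and 8.63 and 8.78 FPKM for Dusp1. In a limma fit with sex as a term beside genotype, Fos was lower in the male libraries by 0.78 on the log2 scale (SE 0.11; limma adjusted p = 0.057). In that fit 0 of the 10 passed for the sex term and 3 of the 10 (Fos, Jun and Dusp1) had an unadjusted p under 0.05, all lower in males. Over all genes 70 of 14642 passed (0.478%), and 4.31% were lower in males at an unadjusted p under 0.05. With the sex term 0 of 10 passed for genotype. The change of Fos between genotypes was the same 0.11, which the design fixed. The sexes were divided alike in both groups, so a sex term cannot move it. Among the 4 female libraries alone, an alternative added after the values were seen, the log2 change of Fos was 0.19, and 0 of 10 and 0 of all genes passed.

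Other measures moved with this split. The clock genes and the gland markers given above separated the same libraries. Of 10 enterocyte markers, 6 were lower in control 1 and mutant 1 than in all 4 others, among them, picked out after their values were seen, Apoa1, at 5236 and 5845 FPKM against 6857 to 9956 FPKM, and Slc5a1, the intestinal glucose transporter gene, at 500 and 447 FPKM against 646 to 759 FPKM. The summed enterocyte level did not separate them, with 22834 FPKM in control 1, 29102 FPKM in mutant 1 and 28014 FPKM in mutant 2. Of 12 hypoxia response genes, 6 were lower in both (Vegfa, Bnip3, Hif1a, Pfkfb3, Egln3 and Higd1a), and the rest did not separate these libraries. The share over all genes to set beside the enterocyte and hypoxia counts is 6.41%. The part of these in the levels of the immediate early genes was not tested.

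**Figure D4:**
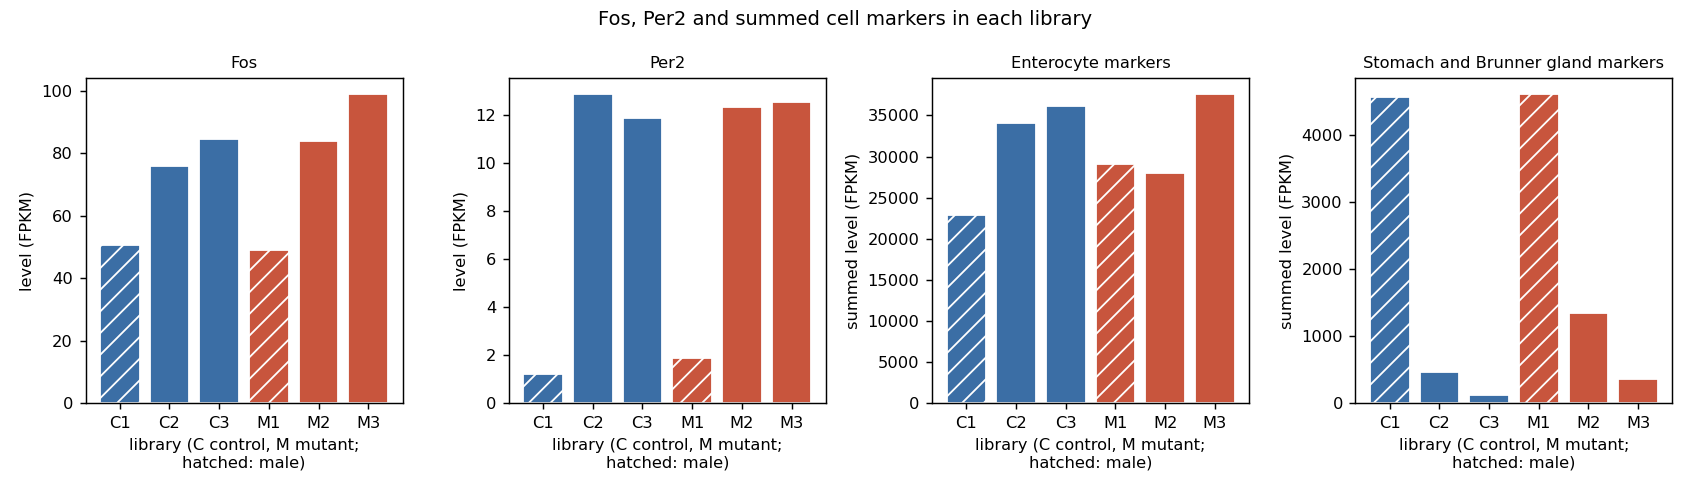
Level of Fos and Per2 and summed levels of enterocyte markers and of stomach and Brunner gland markers in FPKM (vertical axes from 0) in each library (C1 to C3 controls, M1 to M3 mutants); hatched bars are the male libraries. Fos and Per2 were lowest, and stomach and Brunner gland markers highest, in control 1 and mutant 1.

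The promoters of these 6 genes are shown because each was lower in control 1 and mutant 1 than in the other 4 libraries, by a narrow gap for 4 of them; their orders of libraries otherwise differed. Of the 10 genes, 8 were matched in the RefSeq promoter table (build GRCm38.p6) and searched. The promoters of Egr1 and Ier2 were not searched, so the motif counts leave both genes out and say nothing of their motifs. Each line gives the 150 bases before the start site, 5′ to 3′ on the gene's strand, with capitals for a match to any motif searched. Their positions are chr12:85473740-85473889 (plus strand), chr7:19310046-19310195 (minus strand), chr4:95052223-95052372 (minus strand), chr17:26508473-26508622 (minus strand), chr7:28379229-28379378 (minus strand) and chr15:101266696-101266845 (plus strand), in the order of the lines.
Fos: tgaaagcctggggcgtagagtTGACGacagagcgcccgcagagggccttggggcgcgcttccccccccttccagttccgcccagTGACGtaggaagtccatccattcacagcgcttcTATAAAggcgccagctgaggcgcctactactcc
Fosb: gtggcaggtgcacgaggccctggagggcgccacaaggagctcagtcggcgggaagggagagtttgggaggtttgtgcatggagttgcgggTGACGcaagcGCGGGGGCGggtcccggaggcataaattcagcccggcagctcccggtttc
Jun: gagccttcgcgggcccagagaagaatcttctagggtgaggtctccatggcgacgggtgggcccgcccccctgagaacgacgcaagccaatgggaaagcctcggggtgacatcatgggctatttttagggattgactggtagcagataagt
Dusp1: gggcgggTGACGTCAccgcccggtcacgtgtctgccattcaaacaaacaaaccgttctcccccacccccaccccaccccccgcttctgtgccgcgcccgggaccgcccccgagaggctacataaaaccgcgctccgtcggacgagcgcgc
Zfp36: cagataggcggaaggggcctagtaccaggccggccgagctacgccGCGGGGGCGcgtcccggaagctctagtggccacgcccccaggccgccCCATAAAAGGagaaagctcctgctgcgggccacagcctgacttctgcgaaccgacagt
Nr4a1: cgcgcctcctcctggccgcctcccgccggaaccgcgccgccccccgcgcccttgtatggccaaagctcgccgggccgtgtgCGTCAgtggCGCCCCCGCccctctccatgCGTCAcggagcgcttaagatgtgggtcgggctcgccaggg

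In the 250 bases before the start site, the short CRE core TGACG was found on either strand in 6 of the 8 matched genes (Fos, Fosb, Junb, Atf3, Dusp1 and Nr4a1), and in 17.8% of all 32851 promoter windows. Fos carried it at 66 and 129 bases before the start, and Nr4a1 at 4 places, of which 2 lie in the stretch shown. The full CRE TGACGTCA contains the short core on each strand. It was found in Dusp1 only among the 8, 143 bases before the start, and in 1.55% of windows. The CArG box, bound by SRF, was found in Zfp36 only among the 8, 58 bases before the start, and in 1.47% of windows. The Egr site GCGNGGGCG was found in Fosb, Zfp36 and Nr4a1, and in 4.70% of windows. The AP-1 site TGANTCA was found in none of the 8 and in 6.75% of windows, and TATAAA on the gene's strand in Fos only and in 7.59% of windows. A match is a run of letters, and elements farther from the start lie outside this window.

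The spread between libraries of one group differed widely among the 10. The pooled within-group SD of log2(FPKM + 0.1) was 0.98 for Nr4a1, 0.75 for Atf3 and 0.46 for Fos, which placed them at percentiles 98.6, 97.7 and 93.7 of the 12307 genes whose mean reached 1 FPKM. For Jun and Ier2 it was 0.12 and 0.14, at percentiles 27.7 and 37.3. Each group held 1 male library, so this SD takes in the split of sex, clock state and gland content. Of the 9 of the 10 genes with such a mean, 6 were above the median gene (0.16) and 3 above its 90th percentile (0.38). Beside this stands the error of counting alone, which is small for any gene with many reads and leaves out all other technical error. The coefficient of variation over the 6 libraries, which differ in genotype, sex and clock state, was 27.1% for Fos, where counting alone gives 1.84% at its mean number of reads. The corresponding values were 51.1% and 5.12% for Atf3, 84.6% and 10.8% for Nr4a1 and 7.60% and 2.28% for Jun. For Fosb they were 32.6% and 20.3%, so counting was a large share of its spread.

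**Figure D5:**
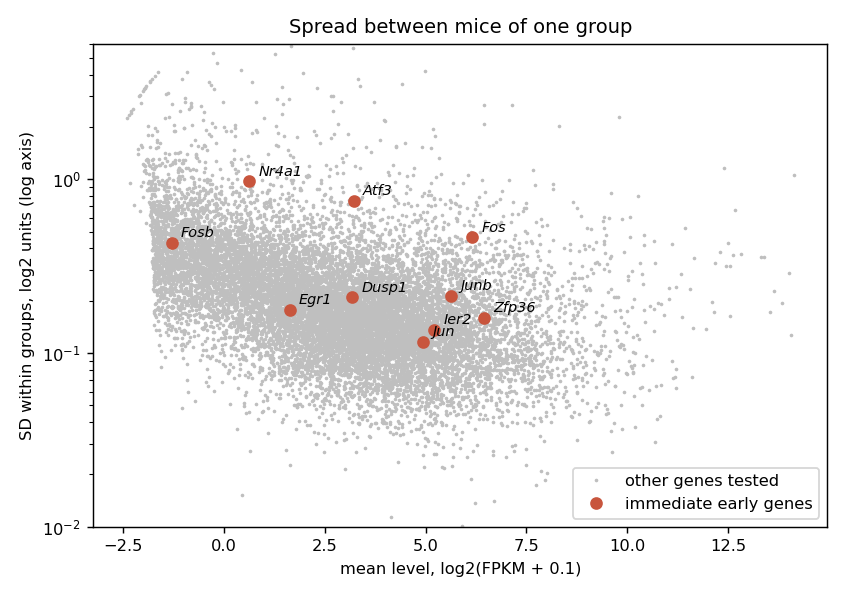
Pooled SD within groups of log2(FPKM + 0.1) (vertical axis, log scale) against mean level (horizontal axis, log2(FPKM + 0.1)) for every gene tested (grey) and the 10 immediate early genes (red). Nr4a1, Atf3 and Fos lie near the upper edge for their level at 0.98, 0.75 and 0.46, and Jun and Ier2 in the body of the genes.

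Genes most like the mean profile of the 10 were then sought among 12298 others whose mean reached 1 FPKM. The measure was Pearson's r over 6 libraries with the mean deviation of the 10, and since the highest were picked from all, no p is given. Nr4a1 and Atf3 weigh heavily in this mean: they deviated by 1.65 and 1.05 in mutant 2, whose mean deviation was 0.35 over the 10 and 0.10 over the 8 without them. Without them mutant 3 was highest (0.18), and control 1 (-0.20) lay below mutant 1 (-0.12), so the profile is not the order of libraries of most of the 10. Klf6, itself an early response gene that encodes a Krüppel-like factor, was the closest (r = 0.996, Spearman's rho = 1.0; r = 0.994 without mutants 1 and 2, the 2 farthest libraries). With the mean of the 8, a comparison added after the values were seen, its r was 0.86 and its rho 0.89. It was at 38.5, 45.5 and 40.1 FPKM across controls and 36.1, 52.5 and 47.6 FPKM across mutants. Next were Irf2bp1 (r = 0.992), Rrp12 (0.984), Egln3 (0.978), Mthfd1l (0.976), Lrfn4 (0.974), 2010109K11Rik (0.969), Elovl1 (0.969) and Ccl20 (0.966). Egln3 encodes an oxygen-sensing prolyl hydroxylase, and Ccl20 a chemokine of the gut epithelium; Ccl20 was at 45.9, 75.7 and 51.2 FPKM across controls and 41.6, 84.4 and 67.6 FPKM across mutants. With 6 points, 74 of the 12298 genes had an r of at least 0.9. Within the 10, each gene's r with the mean of the other 9 was 0.95 for Jun, 0.76 for Atf3, 0.71 for Fosb, 0.68 for Fos and 0.67 for Nr4a1. It was 0.48 for Junb, 0.36 for Zfp36, 0.34 for Dusp1, 0.12 for Egr1 and -0.19 for Ier2. Egr1 and Ier2 correlated with each other (r = 0.93). These points share libraries and depth.

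Other early response genes were taken as a list of 51, of which 46 were tested. Of these 0 passed in limma, and 2 had an unadjusted p under 0.05, against 2.84% of all genes. The groups did not overlap for 1 of them, against 7.57% of all genes. Means were higher in mutants for 29 and lower for 17, and the median log2 change was 0.04. The smallest p was that of Ereg, which encodes the EGF receptor ligand epiregulin. It was at 2.52, 1.95 and 2.00 FPKM across controls and 3.05, 2.75 and 3.04 FPKM across mutants, and the groups did not overlap. The log2 difference was 0.44 (SE 0.15), with a limma adjusted p of 1.0. Ier3, a survival gene of the early response, had a log2 change of 0.37 and Plk3, a stress kinase gene, one of 0.42, both with overlapping groups. Of the 46, 8 were lower in control 1 and mutant 1 than in all other libraries, against the 6.41% of all genes: Klf6, Nfkbia, Gadd45b, Rhob, Maff, Bhlhe40, Plk3 and Areg. Areg, which encodes the EGF receptor ligand amphiregulin and was picked out after its values were seen, was at 16.5, 31.0 and 18.8 FPKM across controls and 14.1, 57.1 and 17.5 FPKM across mutants. Its 2 highest libraries, mutant 2 and control 2, were also the 2 highest for Atf3.

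Genes upstream of the 10 were counted in the same way. Of 12 activators of their promoters (SRF, the Elk factors, their coactivators, CREB factors and 2 kinases), 0 passed and 6 were higher and 6 lower, with a median log2 change of -0.01. Their smallest p was that of Elk1, at 1.68, 1.42 and 1.52 FPKM across controls and 1.08, 1.57 and 1.14 FPKM across mutants. Of 14 tested genes of EGF receptor and MAP kinase signalling 0 passed, with 5 higher and 9 lower and a median of -0.04. Braf, a kinase gene of this pathway, was at 2.87, 3.35 and 2.88 FPKM across controls and 2.67, 2.54 and 2.73 FPKM across mutants. It was the only 1 of the 14 without overlap, against 7.57% of all genes. Of 13 bZIP genes whose proteins can pair with those of Fos, Jun or their relatives, 0 passed. The groups did not overlap for 3 of the 13, against 7.57% of all genes. At an unadjusted p under 0.05 there were 2, where 2.84% of all genes were below that value. These were Batf3, at 2.98, 3.46 and 2.81 FPKM across controls and 4.90, 3.63 and 4.70 FPKM across mutants, and Mafg, at 9.78, 9.85 and 10.9 FPKM and 13.3, 11.04 and 13.8 FPKM, neither with overlap.

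Stress response genes of other routes were also counted. Of 11 heat shock genes tested 0 passed, and 10 had higher means in mutants, with a median log2 change of 0.10. The inducible chaperone gene Hspa1a, picked out after its values were seen, was at 4.02, 12.9 and 18.9 FPKM across controls and 14.9, 3.37 and 44.7 FPKM across mutants. It was highest in mutant 3, as was Fos, but lowest in mutant 2, where Fos was at 84.0 FPKM and Nr4a1 highest. None of the heat shock genes was lower in both control 1 and mutant 1. Of 12 glucocorticoid response genes 0 passed. At an unadjusted p under 0.05 there were 2, the metallothionein genes Mt1 and Mt2, where 2.84% of all genes were below that value. Mt1 was at 372, 355 and 645 FPKM across controls and 1276, 1274 and 1566 FPKM across mutants, without overlap (limma adjusted p = 0.863). In this list 3 of 12 (Fkbp5, Klf9 and Per2) were lower in both control 1 and mutant 1, against 6.41% of all genes. Nfil3 of the same list went the other way. It was at 17.0 and 15.6 FPKM in these 2 libraries and at 3.31 to 6.41 FPKM in the others. Over all genes, 20.9% were higher in both. Per2 and Nfil3 are also among the clock genes counted above. Neutrophil markers were near 0 in all libraries: their sum was 1.35 to 2.35 FPKM across controls and 1.75 to 2.41 FPKM across mutants, with Elane at 0 in all. Smooth muscle markers summed to 780 to 1039 FPKM across controls and 862 to 1115 FPKM across mutants, and macrophage markers to 200.4 to 233 FPKM and 204 to 209 FPKM, so that neither separated the groups.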

How the data were processed

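RNA from 6 duodenal libraries, 3 per group, was sequenced by the submitters. The submitters' processing notes list CASAVA 1.8.2, TopHat, Cufflinks, DESeq and mm9, without settings. The deposited tables give FPKM per gene and per RefSeq transcript, and for transcripts the coverage, an unscaled signal, and the length, per the file headers. The authors' deposited comparison holds mean normalized counts as a signal per group, a fold change as a ratio, its log2, and p-values with their adjusted form.

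Of 23235 symbols, for which the row with the highest mean was kept, 209 without a successful estimate in every library were left out. Reads were recovered as coverage times (length less 210.34 bases) over 101 bases, the read length; 57 of 60 values of the 10 genes were whole within 0.05. Over all transcripts 60.7% to 62.2% were whole, so limma-voom on rounded reads served only as an alternative. The main test was limma 3.58.1 (R 4.3.3) with a mean-dependent prior on log2(FPKM + 0.1), two-sided, for genes whose mean reached 0.2 FPKM, Benjamini-Hochberg adjusted over all genes. Changes on this scale are understated for low genes. On simulated data over 14531 genes it recovered 63 of 100 genes changed 2-fold and 96 of 100 changed 4-fold, with 3 false calls. The noise was drawn independently for each library, without the shared split of sex and clock state. Only genes with a mean log2 level above 0 were changed. These shares are averages over such genes and do not give the power for any of the 10. Genes named are the 10, up to 3 of each list with the smallest p, and the 10 most like them, of which 1 is not reported here; all others, among them those named for being lower in control 1 and mutant 1, were picked out after their values were seen. Members and lists were chosen with earlier results of these data known. Alternatives covered pseudocount, filter, scaling, prior, weights, repeated symbols, replicate block, sex, reporter and leaving out each library. Lists not described otherwise (goblet, Paneth, tuft, endocrine, crypt, fibroblast, endothelial, neuron and glia, acinar markers) had 0 genes passing.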

Additional observations from a re-analysis of the deposited data

How the results depend on the processing

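In every alternative run 0 of the 10 genes passed, and the smallest limma adjusted p of any of them was 0.845, with the replicate block. Egr1, Ier2, Jun and Junb kept a log2 change above 0 throughout. The alternatives of filter, prior, repeated symbols, replicate block and sex term left these changes at their main values. In this balanced design they cannot move them, so they do not test the sign. Fosb turned positive with a pseudocount of 1 (0.0024), array weights (0.076) and female libraries only (0.21), and Dusp1 turned to -0.093 with female libraries only. Among reporter carriers Atf3 stood at -0.52 and Nr4a1 at -0.24. With each library left out in turn, the log2 change ran from -0.11 to 0.41 for Fos, -0.26 to 0.28 for Fosb, -0.23 to 0.65 for Atf3, -0.13 to 0.11 for Dusp1, -0.10 to 0.10 for Zfp36 and -0.36 to 1.00 for Nr4a1. Over all genes 0 passed, against 1 with the replicate block, 2 among reporter carriers and 0 to 3 with a library left out, where 1 library fewer leaves another set of genes tested; the cause was not tested. The replicate numbers are shared by both groups, but the deviations of same-numbered libraries correlated at 0.21, 0.05 and 0.22, so the numbers were not taken to pair the libraries, and not every library correlated best with its own number. Depth limits Fosb, with 11 to 37 reads. A filter of 1 FPKM left Fosb untested.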
